A study of Homo sapiens with 6 samples.

Results

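The protein-coding genes of human chromosome 19 that carry a ZNF name followed by a digit were described in MDA-MB-231 cells, a mesenchymal-like line of triple-negative breast cancer, and in adriamycin-resistant (ADRr) cells derived from it. Selection by chromosome, biotype and name gave 249 of the 58735 genes in the deposited table. The parent group held 3 libraries of wild-type cells that had not been selected with drug. The ADRr group held 3 libraries of the resistant cells, which according to the methods of the study were selected from the same parent in rising concentrations of adriamycin (doxorubicin, an anthracycline that poisons topoisomerase II) and then cloned by limiting dilution. The comparison asks which of these genes differed in mRNA level once resistance had been established. The number of clones, and whether drug was present at harvest, are not given in the sources used here, so a property of one clone and a property of resistance cannot be told apart. The labels do not say that the libraries of a group came from separate cultures, and the series record speaks of time points that no label names, so p-values measure only the spread between these libraries.

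Most of these genes encode Krüppel-type proteins, in which a tandem array of C2H2 zinc fingers reads DNA and an amino-terminal KRAB domain, where there is one, binds the corepressor TRIM28 (KAP1). TRIM28 in turn recruits the histone methyltransferase SETDB1 and HP1 proteins, which silence transposable elements and the 3′ ends of zinc finger genes themselves. The genes lie in tandem clusters that arose by repeated duplication, and many are known only by sequence.

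Sequence was used first to describe what the members share. In the longest open reading frame of their GENCODE 29 coding transcripts, 248 members gave a median of 12 C2H2 fingers, with a maximum of 36 in ZNF208, and 212 members held a KRAB signature. ZNF585A and ZNF585B, neighbours in one cluster, show how close 2 members can be. Each encodes 21 fingers, 8 of the fingers are identical, and 1283 of the 1323 bases of the array are the same (97.0%). Their finger 11, the middle one of the array, is printed and is the same in both. The codons of the zinc-binding cysteine and histidine pairs are in capitals.

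ZNF585A: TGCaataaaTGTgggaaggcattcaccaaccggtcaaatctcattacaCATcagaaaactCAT
ZNF585B: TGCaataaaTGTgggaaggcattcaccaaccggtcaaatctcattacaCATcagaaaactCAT

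The pair also shows what such likeness means for the counts. The parent libraries held 199.6, 173.1 and 213.3 normalized counts of ZNF585A and the ADRr libraries 284.5, 283.6 and 320.3, so the groups did not overlap. ZNF585B was at 314.9, 309.4 and 290.2 in the parent libraries and at 303.6, 271.1 and 313.8 in the ADRr libraries, which overlapped. A stretch of 150 bases that is present in another gene cannot be assigned by sequence. Of such windows, 7.69% of those of ZNF585A and 10.6% of those of ZNF585B occurred in any other gene, so most reads could distinguish the pair. Other annotated genes, AC012309.1 among them, overlap 6.95 and 13.1% of their exon bases, so these shares do not measure the likeness of the pair alone. Across all members, 167 shared no window with another gene and 17 shared more than 20% of their windows. Of those 17, 10 were tested and only ZNF468 (50.5% of windows shared) was called, so its value is uncertain in source.

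The promoters of 217 members were found in the RefSeq table (GRCh38.p14), as the 250 bases before and 50 bases after the annotated start. CCGGAAG, the core of a site for ETS factors, occurred on either strand in 99 of the 217 (45.6%), against 10.7% of all 27305 promoters of the table and 19.3% of the promoters of tested genes. ACTACA and CCCA with any 3 bases between them, letters that match the site of the factor ZNF143, occurred on either strand in 46 (21.2%), against 1.79% of all promoters and 3.54% of those of tested genes. CCAAT, the core of the site of NF-Y, occurred on either strand in 53.9%, against 35.7% of all promoters. In 213 promoters of ZNF genes of other chromosomes the shares were 34.7, 8.92 and 43.7%, in the order of the motifs above. Much of the excess over all promoters was thus shared by ZNF genes elsewhere. The second of these motifs was chosen after the members' promoters had been seen, and a match is a string of letters, not a site.

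The 250 bases before the start are printed for 2 members whose transcripts were higher in ADRr cells (ZNF566 and ZNF181) and 2 whose transcripts were lower (ZNF580 and ZNF530), all among the largest changes. Capitals mark CCGGAAG, and ACTACA with CCCA after any 3 bases, on either strand. The printed bases lie at chr19:36489562-36489811 (minus strand), chr19:34733993-34734242 (plus), chr19:55640752-55641001 (plus) and chr19:57599635-57599884 (plus), in that order.

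ZNF566: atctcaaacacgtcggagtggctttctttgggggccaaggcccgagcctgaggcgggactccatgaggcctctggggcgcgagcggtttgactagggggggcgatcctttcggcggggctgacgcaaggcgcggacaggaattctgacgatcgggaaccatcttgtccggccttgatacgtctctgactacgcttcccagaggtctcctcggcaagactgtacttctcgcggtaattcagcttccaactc
ZNF181: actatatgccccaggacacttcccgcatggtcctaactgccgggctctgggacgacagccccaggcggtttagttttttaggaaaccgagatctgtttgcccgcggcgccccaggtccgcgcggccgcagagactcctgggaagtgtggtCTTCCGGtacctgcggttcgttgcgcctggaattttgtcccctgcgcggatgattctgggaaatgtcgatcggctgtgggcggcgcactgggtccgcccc
ZNF580: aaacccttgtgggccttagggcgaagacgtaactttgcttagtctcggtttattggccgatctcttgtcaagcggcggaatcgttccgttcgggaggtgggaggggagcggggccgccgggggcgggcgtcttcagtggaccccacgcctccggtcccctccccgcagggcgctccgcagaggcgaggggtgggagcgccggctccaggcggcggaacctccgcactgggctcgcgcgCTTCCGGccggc
ZNF530: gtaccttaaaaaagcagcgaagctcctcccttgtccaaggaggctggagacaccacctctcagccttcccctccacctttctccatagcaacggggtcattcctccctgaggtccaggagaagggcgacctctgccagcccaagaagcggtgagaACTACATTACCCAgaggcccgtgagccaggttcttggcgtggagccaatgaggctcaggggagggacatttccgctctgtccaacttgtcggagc

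ZNF181 and ZNF580, which moved in opposite directions, each held CTTCCGG, ZNF530 held ACTACATTACCCA, and ZNF566 held neither motif in these bases. The RefSeq start of ZNF580 lies inside the gene's span in the deposited table, which begins at position 55635016, so the printed bases belong to one of its starts. The same holds for ZNF566, whose span ends at position 36489902 on the minus strand and holds all the printed bases. Part of the printed bases of ZNF181 lies past the start of its span, at position 34734155. Over all members with a promoter, CCGGAAG was found in 44.7% of those called higher, 41.9% of those called lower and 48.6% of those tested and not called.

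The 6 libraries held 15983985 to 18272314 counts, of which 0.289 to 0.322% fell on the members, and 212 to 214 members had at least 10 counts in a library. The line's markers VIM, CD44, AXL and KRT18 were high in every library, whereas ESR1 had 0 or 1 count and PGR had none. CDH1, the epithelial cadherin, was present at a mean of 252.4 normalized counts in parent and 120.6 in ADRr cells. Of the markers of other cells, DCN and TYROBP were at 0 in all 6 libraries, PTPRC had at most 2 counts, LYZ at most 1, CD53 at most 4, VWF at most 7 and PECAM1 4 to 13, while LUM had 46 to 85. CD53 and VWF had no count in the parent libraries and at least 1 in each ADRr library, and the part of these few counts in the results was not tested.

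Of the 249 members, 215 had enough counts to be tested. A gene was called where edgeR's quasi-likelihood test with Benjamini-Hochberg adjustment over all 15242 tested genes gave an adjusted p of at most 0.05 and the fold change was at least 1.2 (0.263 on the log2 scale). Members called higher in ADRr cells numbered 44 (20.5%), against 29.2% of all tested genes, and 46 were called lower (21.4%), against 29.6%. Both shares were below the background (58.8% called in either direction), and 125 members (of 215) were not called. Normalized counts of the groups did not overlap for 56 members that were higher in ADRr cells and 53 that were lower, against 34.5 and 34.7% of all tested genes. Together these were 50.7% of the tested members against 69.2%. RNA from a bulk culture does not tell fewer expressing cells from less RNA per cell.

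The changes were small. The median log2 fold change of the tested members was −0.041 (−0.047 to 0 with each library left out in turn, the latter without the second ADRr library), beside −0.006 over all tested genes. The median absolute value was 0.29, beside 0.46. Only 8 members (3.72%) differed by at least 2-fold, beside 19.1% of all tested genes, and the members ranged from −1.58 to 1.34. The 228 tested ZNF genes of other chromosomes had 68 called higher, 56 called lower, and 11.4% with at least a 2-fold difference. The other 728 tested protein-coding genes of chromosome 19 had 184 called higher and 252 called lower, with a median of −0.09.

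The members' median normalized count was 166 and that of all tested genes 401. Among genes with a mean of 50 to 500 normalized counts, 41.3% of 167 members were called, beside 63.8% of 5114 genes of any kind and 54.2% of 142 ZNF genes of other chromosomes. In that range the median normalized count was 170 in members, 208 in all genes and 202 in the other ZNF genes, and the part of count level in the shares was not tested. Of 184 tested members with a KRAB signature 39 were called higher and 38 lower, and of 31 without one 5 were called higher and 8 lower. Median finger number was 11.5 in members called higher, 13 in those called lower and 12 in those not called.

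The member with the largest increase was ZNF571 (ENSG00000180479, chr19:37554782-37594790, minus strand, GRCh38), a KRAB gene with 16 fingers. Its parent libraries held 34.0, 28.1 and 26.3 normalized counts and its ADRr libraries 75.2, 68.0 and 81.3, with no overlap. The log2 fold change was 1.34 ± 0.23 (SE, n = 3 libraries per group, edgeR adjusted p = 2.7e-05), a 2.54-fold difference.

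ZNF566 (ENSG00000186017, chr19:36445119-36489902, minus strand) rose by nearly the same factor at a higher level. Parent libraries had 121.4, 114.7 and 94.5 normalized counts and ADRr libraries 277.9, 284.7 and 264.3 (log2 1.32 ± 0.13, SE, edgeR adjusted p = 3.8e-09). ZNF181 (ENSG00000197841, chr19:34734155-34745378, plus strand) went from 103.9, 101.7 and 91.6 to 221.7, 225.0 and 209.2 (1.14 ± 0.13, edgeR adjusted p = 6.8e-08). In both genes every ADRr library was above every parent library.

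ZNF416 lies near the long-arm end (chr19:57571566-57578927, minus strand). It had 107.0, 85.5 and 107.1 normalized counts in parent and 213.2, 196.7 and 230.7 in ADRr libraries (1.09 ± 0.14, edgeR adjusted p = 3.1e-07). ZNF773, 3 places before it, was near the lower limit of the test, at 6.2, 14.1 and 15.6 against 25.7, 23.0 and 34.6 (1.21 ± 0.39, edgeR adjusted p = 0.0084). The groups did not overlap, but without the first parent library the call of ZNF773 was lost (adjusted p = 0.062), as it was without the third ADRr library (0.061). ZNF460, also in that region, was called at 0.91 ± 0.22.

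The largest decreases were in ZNF404, ZNF580 and ZNF530. ZNF404 (ENSG00000176222, chr19:43872363-43901385, minus strand) had 35.0, 46.5 and 27.3 normalized counts in parent and 9.5, 12.6 and 14.0 in ADRr libraries (−1.58 ± 0.35, edgeR adjusted p = 0.00045). Of its exon bases 17.6% overlap another annotated gene and 13.1% of its 150-base windows occur elsewhere. The groups did not overlap, although both were low.

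ZNF580 (ENSG00000213015, chr19:55635016-55643469, plus strand), a short protein with 3 fingers and no KRAB signature, was far better covered. Its parent libraries held 756.4, 613.4 and 728.5 normalized counts and its ADRr libraries 224.6, 265.8 and 227.9, so ADRr cells held 0.342 of the parent level (−1.55 ± 0.10, edgeR adjusted p = 4.6e-12). ZNF581 overlaps it over 15.1% of its exon bases and was not called, at 232.6, 210.9 and 284.4 in parent and 304.5, 267.9 and 230.7 in ADRr libraries. ZNF530 (ENSG00000183647, chr19:57599885-57612722, plus strand) fell from 287.1, 284.5 and 287.3 to 115.1, 134.0 and 119.5 (−1.22 ± 0.12, edgeR adjusted p = 4.2e-09), and it lies next to ZNF416, which rose. No ADRr library of either gene reached the lowest parent library.

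**Figure D1:**
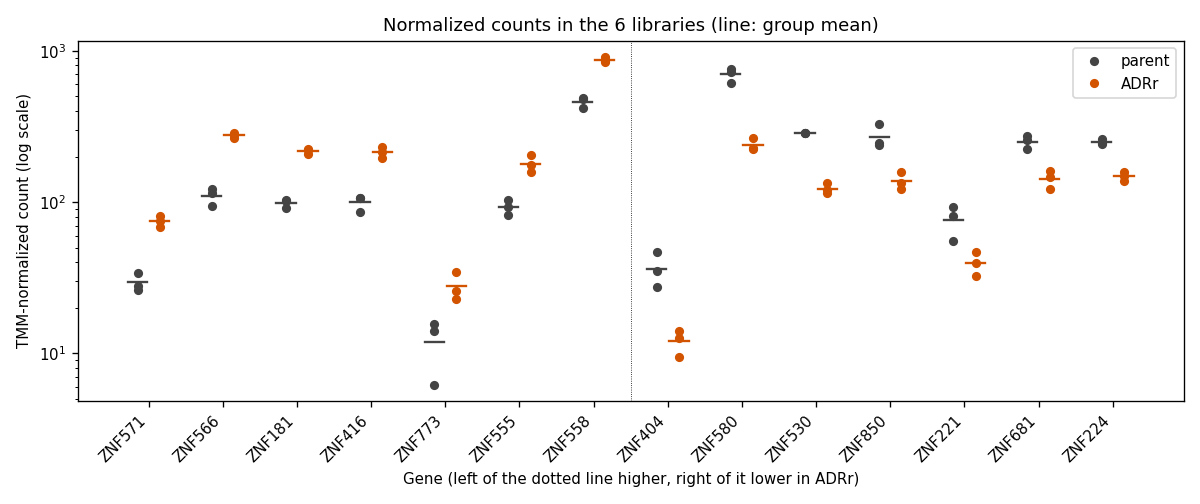
TMM-normalized counts (log scale) of 14 members in the 3 parent and 3 ADRr libraries, with a line at each group mean. The groups do not overlap in any of the 14, and counts run from 6.2 in a parent library of ZNF773 to 909.4 in an ADRr library of ZNF558.

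Members were next followed along the chromosome. A cluster was taken to end where 2 neighbouring members start more than 1 Mb apart, and the 9 clusters with at least 5 members were numbered from the short-arm end. The remaining 11 members lay outside them. Calls in each cluster are to be read beside the shares of all tested genes, 29.2% higher and 29.6% lower. Of 33 pairs of tested neighbours within a cluster that were both called, 23 had the same direction (69.7%) and 10 opposite directions. The share was near the 61.6% of 4989 such pairs of protein-coding neighbours on any chromosome. Pairs within a run share members, so they are not independent. The difference between the shares was not tested.

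**Figure D2:**
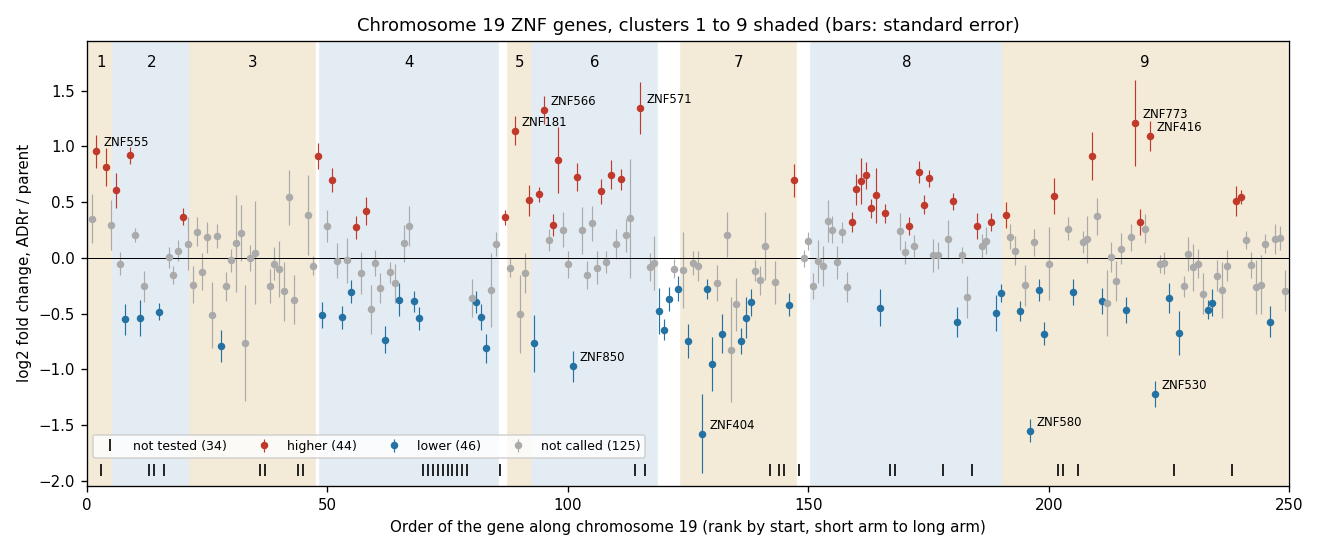
Log2 fold change (ADRr over parent, bar: standard error) of the 215 tested members by rank of their start along chromosome 19, with the 9 clusters shaded and numbered. Red points were called higher (44), blue lower (46), grey not called (125), and ticks at the bottom mark 34 untested members, 10 of them in a row in cluster 4.

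Cluster 1 (chr19:2819874-2944971, ZNF554 to ZNF77) was small, and its summed normalized count was 264.5, 262.9 and 259.1 in parent and 402.5, 442.7 and 431.5 in ADRr libraries, a ratio of 1.62. Of its 4 tested members 2 were called higher and none lower. ZNF555 went from 102.9, 93.0 and 81.8 to 158.0, 176.9 and 203.6 (0.96 ± 0.15, edgeR adjusted p = 6.9e-06), and ZNF57 from 63.8, 68.2 and 57.5 to 111.3, 116.2 and 105.5 (0.81 ± 0.17, edgeR adjusted p = 0.00026). In both, every ADRr library was above the parent libraries.

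Cluster 2 (chr19:7069444-9793180, 13 tested members) had 3 members called higher and 3 lower, with a median of 0.005. Its sums overlapped between groups. ZNF558, which is known to repress the mitophagy gene SPATA18 in human neural progenitors, rose from 485.7, 479.2 and 418.8 to 844.1, 909.4 and 861.1 (0.92 ± 0.08, edgeR adjusted p = 8.1e-10), and ZNF414, a member with 3 fingers, fell from 189.3, 161.2 and 221.1 to 123.7, 141.3 and 126.1 (−0.55 ± 0.14, edgeR adjusted p = 0.0014). Among the 27 tested non-member protein-coding genes within the same span, 10 were called higher and 4 lower.

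Cluster 3 (chr19:11483427-12640098) was the quietest of the 9 by share of calls. Of 22 tested members only ZNF439 was called, and the 15 tested members from ZNF69 to ZNF791 followed each other without a call. ZNF439 fell from 200.7, 232.6 and 216.2 to 156.1, 110.9 and 106.5 normalized counts (−0.80 ± 0.14, edgeR adjusted p = 4.5e-05). Without the first parent library 2 members were called lower, and without the second parent or the third ADRr library 1 was called higher. Of the 22, 2 had an unadjusted p under 0.05. The 2 tested non-member protein-coding genes in its span were called 1 in each direction.

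Cluster 4 (chr19:19668796-24129961, ZNF101 to ZNF254) fell on balance. Of 27 tested members 10 were called lower (37.0%, against 29.6% of all tested genes) and 3 higher (11.1%, against 29.2%). Its median was −0.27, and its sums of 6064, 6800 and 5701 in parent and 5488, 5196 and 5373 in ADRr libraries did not overlap. The median rested in part on the second parent library, without which it was −0.11, while 10 members were called lower. This is the cluster of ZNF91 and ZNF93, which are known to repress SVA elements and LINE-1 elements in primate cells.

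ZNF91 (chr19:23304991-23395560, minus strand, 31 fingers) had 427.1, 503.0 and 395.4 normalized counts in parent and 346.4, 330.7 and 328.7 in ADRr libraries (−0.40 ± 0.10, edgeR adjusted p = 0.0012). ZNF93 (chr19:19900913-19963464, plus strand, 16 fingers) had 290.2, 309.4 and 286.4 against 199.8, 216.6 and 196.1 (−0.53 ± 0.11, edgeR adjusted p = 0.00012). In both the ADRr libraries were all below the parent libraries. ZNF43 fell likewise, from 364.3, 350.5 and 316.5 to 253.1, 233.4 and 222.3 (−0.54 ± 0.10, edgeR adjusted p = 7.8e-05).

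The largest decreases of cluster 4 were in ZNF681 and ZNF714. ZNF681 went from 256.2, 273.7 and 223.0 to 145.6, 121.4 and 159.7 (−0.81 ± 0.13, edgeR adjusted p = 8.5e-06), and with ZNF91 and ZNF675 (−0.53) it formed a run of 3 neighbours called lower. ZNF714 went from 594.8, 838.4 and 552.2 to 360.7, 378.8 and 449.2 (−0.74 ± 0.12, edgeR adjusted p = 1.5e-05), with the second parent library well above the others. ZNF85, whose libraries overlapped, had a fold change of −0.05 (edgeR adjusted p = 0.73). The largest increase was in ZNF506, from 241.8, 293.2 and 214.3 to 394.0, 410.2 and 410.9 (0.70 ± 0.11, edgeR adjusted p = 5.3e-06).

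In the middle of cluster 4, 10 neighbouring members from ZNF208 to ZNF730 (chr19:21932958-23147219) were not tested. They had 17 counts in all over the 6 libraries, no library held more than 5 of any one of them, and 5 had no count in any library. At these depths a count of 0 allows a level of up to 0.164 to 0.188 CPM (3 counts, counting error only). Over all 34 untested members the highest count in a library was 15, and 11 members had none.

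Promoters of cluster 4 are alike in sequence, and the bases around CCAAT (capitals) are printed for 4 members called lower to show it. They lie 51 to 53 bases before the RefSeq start, at chr19:23758920-23758972 (minus), chr19:21082121-21082173 (plus), chr19:21836212-21836264 (minus) and chr19:19900866-19900918 (plus). The window of ZNF43 lies inside the gene's span, which ends at position 21852125 on the minus strand, so it belongs to one of its starts. The windows of ZNF714 and ZNF93 cross the start of their spans.

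ZNF681: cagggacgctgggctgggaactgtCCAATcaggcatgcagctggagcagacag
ZNF714: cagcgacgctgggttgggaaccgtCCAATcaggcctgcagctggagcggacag
ZNF43: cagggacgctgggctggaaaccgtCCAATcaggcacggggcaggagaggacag
ZNF93: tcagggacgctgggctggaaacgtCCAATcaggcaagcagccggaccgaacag

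All 29 promoters of cluster 4 found in the table held CCAAT on either strand, as did 23 of 25 in cluster 3, where almost no member was called. CCGGAAG occurred in 21 of the 29 in cluster 4 and in 2 of the 25 in cluster 3. CCAAT stood in 34.2% of the promoters of members called higher, 58.1% of those called lower and 58.6% of those not called. Promoters of a cluster resemble each other, so they are not independent.

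Cluster 5 (chr19:34677639-34964049) had 5 members, all tested, with ZNF181 and ZNF792 (0.52) called higher and none lower. The median was −0.09, from −0.145 without the first ADRr library to −0.021 without the first parent library. On the FPKM scale the median was 0.15 with the filter, which 4 members passed, and −0.073 without the filter. Its summed counts were 962.2, 995.2 and 832.8 in parent and 1173, 1006 and 1033 in ADRr libraries.

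Cluster 6 (chr19:36182060-37817300, ZNF565 to ZNF573) rose on balance, with a median of 0.25. Of 24 tested members 9 were called higher (37.5%, against 29.2% of all tested genes) and 2 lower (8.33%, against 29.6%). Its sums were 5662, 6324 and 5433 in parent and 7608, 7381 and 7682 in ADRr libraries and did not overlap. Among 4 tested non-member protein-coding genes in its span, 1 was called higher and none lower. The largest part of the summed count was ZNF146, whose mean went from 2262 in parent to 3359 in ADRr libraries. The mean of the sum went from 5806 to 7557, so ZNF146 also held much of the rise. Without the third parent library the median was 0.13 and 1 member was called lower.

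ZNF146 (ENSG00000167635, chr19:36214602-36238774, plus strand), also known as OZF, consists of little but its 10 fingers and is known to be amplified or overexpressed in pancreatic and colorectal tumours. It had the highest level per length of all members, with a mean of 38.8 FPKM over the 6 libraries. Its counts of 2157, 2569 and 2060 in parent and 3373, 3288 and 3416 in ADRr libraries did not overlap (0.57 ± 0.07, edgeR adjusted p = 7.9e-08). ZNF565 overlaps it over 11.6% of its own exon bases and was called in the other direction, from 45.3, 48.7 and 57.5 to 27.6, 34.5 and 27.1 (−0.77 ± 0.26, edgeR adjusted p = 0.012), a call lost without the third parent library (0.061).

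Other members of cluster 6 had been listed for their known roles. ZNF382, a gene silenced by promoter methylation in several carcinomas, was low in both groups, with 22.6, 23.8 and 20.5 normalized counts in parent and 50.4, 31.4 and 41.1 in ADRr libraries (0.88 ± 0.30, edgeR adjusted p = 0.012), and its call was lost without the first ADRr library (0.079). The call of ZNF382 was also lost with DESeq2 (adjusted p = 0.053) and with limma-trend on unfiltered FPKM (0.09). ZNF569 rose from 254.2, 269.4 and 270.8 to 413.0, 430.1 and 451.1 (0.70 ± 0.09, edgeR adjusted p = 6.4e-07). ZNF568, known in the mouse as a repressor of a placental Igf2 transcript, had 92.6, 140.6 and 125.6 against 155.1, 130.8 and 157.8, which overlapped (0.31 ± 0.16, edgeR adjusted p = 0.089). Of the fits that left out 1 library, only that without the second parent library called it (0.022), and without the first parent library its fold change was 0.15.

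ZNF850 (ENSG00000267041, chr19:36714383-36772825, minus strand), with 29 fingers, fell within this rising cluster. It had 239.8, 326.7 and 244.5 normalized counts in parent and 157.0, 132.9 and 122.3 in ADRr libraries (−0.97 ± 0.14, edgeR adjusted p = 1.9e-06). Its neighbour ZNF790 was called higher (0.72), and so were ZNF383 (0.75), ZNF585A (0.60 ± 0.11, edgeR adjusted p = 6.6e-05) and ZNF529 (0.29). ZNF585B differed by −0.04 ± 0.10 (edgeR adjusted p = 0.74).

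Cluster 7 (chr19:43525497-45076588, ZNF575 to ZNF296) fell on balance, with a median of −0.28, near the −0.27 of cluster 4. Of 21 tested members 9 were called lower (42.9%, against 29.6% of all tested genes) and 1 higher (4.76%, against 29.2%). Its summed counts were 3306, 3315 and 3357 in parent and 2789, 2748 and 2805 in ADRr libraries, a ratio of 0.836 with a gap far wider than the spread within either group. Among 19 tested non-member protein-coding genes in the same span, 5 were called higher and 4 lower.

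Most called members of cluster 7 lay in 2 runs of neighbours, ZNF404, ZNF45 (−0.28) and ZNF221, and then ZNF224, ZNF225 (−0.54) and ZNF234 (−0.40). ZNF221 went from 55.6, 81.1 and 93.5 to 46.6, 39.8 and 32.7 (−0.95 ± 0.24, edgeR adjusted p = 0.0014). ZNF224 (chr19:44094339-44109886, plus strand), known as a KRAB repressor of the aldolase A gene, went from 260.4, 245.6 and 242.5 to 148.5, 138.1 and 158.8 (−0.75 ± 0.12, edgeR adjusted p = 6.8e-06). Another annotated gene overlaps 40.5% of the exon bases of ZNF224, and whether counting used strand is not given, so the source of part of its counts is uncertain.

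ZNF230 had 103.9, 109.3 and 107.1 normalized counts in parent and 74.2, 56.5 and 68.2 in ADRr libraries (−0.68 ± 0.18, edgeR adjusted p = 0.0016). ZNF576, at one end of the cluster, went from 179.1, 137.4 and 144.1 to 90.4, 95.2 and 89.7 (−0.74 ± 0.15, edgeR adjusted p = 0.00019). ZNF180 went from 276.8, 308.3 and 280.5 to 219.8, 204.1 and 222.3 (−0.42 ± 0.11, edgeR adjusted p = 0.0013). At the other end ZNF296, the member called higher, rose from 132.8, 95.2 and 122.7 to 165.6, 191.5 and 212.0 (0.70 ± 0.15, edgeR adjusted p = 0.00025).

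In cluster 7, ACTACA followed after 3 bases by CCCA was found in 10 of 20 promoters. The windows of 4 members called lower are printed with the motif in capitals, which here reads as its reverse complement, TGGG, any 3 bases and TGTAGT. They lie at chr19:44094239-44094299 (plus), chr19:44002816-44002876 (plus), chr19:44113296-44113356 (plus) and chr19:44500538-44500598 (minus), 39 to 104 bases before the RefSeq start. The window of ZNF225 lies inside the gene's span, which begins at position 44112181, so it belongs to one of its starts.

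ZNF224: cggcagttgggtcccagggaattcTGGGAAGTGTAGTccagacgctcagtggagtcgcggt
ZNF230: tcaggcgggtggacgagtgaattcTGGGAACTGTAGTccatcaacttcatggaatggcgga
ZNF225: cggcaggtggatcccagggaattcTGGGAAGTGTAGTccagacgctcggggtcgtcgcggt
ZNF180: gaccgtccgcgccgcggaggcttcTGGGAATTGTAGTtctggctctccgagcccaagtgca

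The same letters occurred in 9 of 24 promoters of cluster 6, which rose on balance, in 21 of 54 of cluster 9 and in 1 of 33 of cluster 8. Over the members with a promoter, they stood in 15.8% of those called higher, 30.2% of those called lower and 23.4% of those not called.

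Cluster 8 (chr19:51571298-53580269, ZNF175 to ZNF331) rose on balance. All 40 of its members hold a KRAB signature. Of the 36 tested 14 were called higher (38.9%, against 29.2% of all tested genes) and 4 lower (11.1%, against 29.6%). Its median was 0.20. Its sums were 9794, 10128 and 9367 in parent and 11793, 11134 and 11513 in ADRr libraries, a ratio of 1.18 without overlap. Among the 3 tested non-member protein-coding genes in the same span, all 3 were called lower (median −1.41). The number of members called lower was 2 without the first ADRr library and 6 without the third parent library.

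Of the 14 members called higher, 9 lay in runs of neighbours. From ZNF841 to ZNF610, 6 neighbours in a row were called higher: ZNF841 (0.32), ZNF616 (0.61), ZNF836 (0.69), ZNF766 (0.74), ZNF480 (0.44) and ZNF610 (0.56). ZNF616, for example, went from 130.7, 172.0 and 114.9 to 204.6, 218.7 and 213.9 normalized counts. ZNF610, the last of the run, was low and near the threshold, at 41.2, 43.3 and 31.2 against 62.8, 47.1 and 59.8 (edgeR adjusted p = 0.047). A further run held ZNF600, ZNF28 (0.48) and ZNF468 (0.71). The 8 tested members from ZNF175 to ZNF432, which precede ZNF841, were not called.

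ZNF600 had the largest increase of cluster 8, from 292.3, 247.7 and 302.9 to 478.7, 494.0 and 467.0 normalized counts (0.77 ± 0.10, edgeR adjusted p = 2.6e-07). ZNF841 was one of the 5 members with the highest level per length (10.8 FPKM), with 792.4, 726.9 and 640.9 in parent and 1012, 856.1 and 831.2 in ADRr libraries (0.32 ± 0.09, edgeR adjusted p = 0.0024). Its fold change dropped below 1.2 without the third parent library (0.24 on the log2 scale) or the first ADRr library (0.24). In neither gene did the groups overlap.

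ZNF415 had the largest decrease of cluster 8, and its other named members have known roles. ZNF331, an imprinted gene, fell from 734.8, 656.6 and 708.1 to 588.1, 528.5 and 571.6 (−0.31 ± 0.08, edgeR adjusted p = 0.0013), and ZNF415 from 186.3, 178.5 and 181.2 to 113.2, 138.1 and 115.8 (−0.58 ± 0.13, edgeR adjusted p = 0.00063). ZNF350 (ZBRK1), a partner of BRCA1 in repression of GADD45A, had 159.5, 153.6 and 170.4 against 170.3, 199.9 and 207.3 and was not called (0.25 ± 0.13, edgeR adjusted p = 0.079), though it was called without the first ADRr library (0.035). ZNF175 (OTK18), known to repress the HIV-1 long terminal repeat, was at −0.26 ± 0.12 (edgeR adjusted p = 0.06), with calls when the second (0.024) or the third parent library (0.012) was left out and −0.12 without the first. ZNF649, a repressor of serum response element reporters, was at −0.07 ± 0.18 (edgeR adjusted p = 0.75).

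Cluster 9 (chr19:55476332-58481230, ZNF628 to ZNF446) was the largest, with 54 tested members, and it was mixed. In it 8 members were called higher and 13 lower, with a median of −0.05. Its sums of 13031, 13078 and 13450 in parent and 12882, 12668 and 12274 in ADRr libraries were close, with a ratio of 0.956. Among the 17 tested non-member protein-coding genes in its span, 3 were called higher and 6 lower. Of the 8 members with at least a 2-fold difference, 4 were here: ZNF580, ZNF530, ZNF416 and ZNF773.

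ZNF274 (ENSG00000171606, chr19:58183029-58213562, plus strand) is known to bind the 3′ ends of zinc finger genes and to bring SETDB1 there. Its parent libraries held 1051, 1089 and 1053 normalized counts and its ADRr libraries 1616, 1519 and 1529 (0.55 ± 0.06, edgeR adjusted p = 4.2e-08). The increase of 1.46-fold was far beyond the spread within either group.

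ZNF587 and ZNF417 are closely related members known to repress the HERV-K provirus. ZNF587 fell from 464.1, 505.2 and 528.9 to 382.5, 362.1 and 341.8 (−0.46 ± 0.09, edgeR adjusted p = 9e-05), and ZNF417 from 191.4, 189.3 and 214.3 to 149.4, 152.8 and 148.5 (−0.40 ± 0.12, edgeR adjusted p = 0.006). ZNF417 shares 19% of its windows with another gene, and 35.0% of the exon bases of ZNF587 overlap ZNF814, so reads could be split between copies. Both were lower in all 3 ADRr libraries.

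ZNF671 and ZNF582, whose promoters are known to be methylated in cervical carcinoma, differed in outcome. ZNF671 fell from 109.1, 136.3 and 96.4 to 51.4, 86.9 and 75.6 (−0.68 ± 0.20, edgeR adjusted p = 0.0047). ZNF582 was at 19.6, 22.7 and 32.1 in parent and 26.6, 20.9 and 24.3 in ADRr libraries, a difference of −0.05 ± 0.33 that was not detectable at this depth. ZNF787 was called by a small margin (−0.29 ± 0.10, edgeR adjusted p = 0.011) and the call was lost without the third parent library (0.12) or the third ADRr library (0.065).

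**Figure D3:**
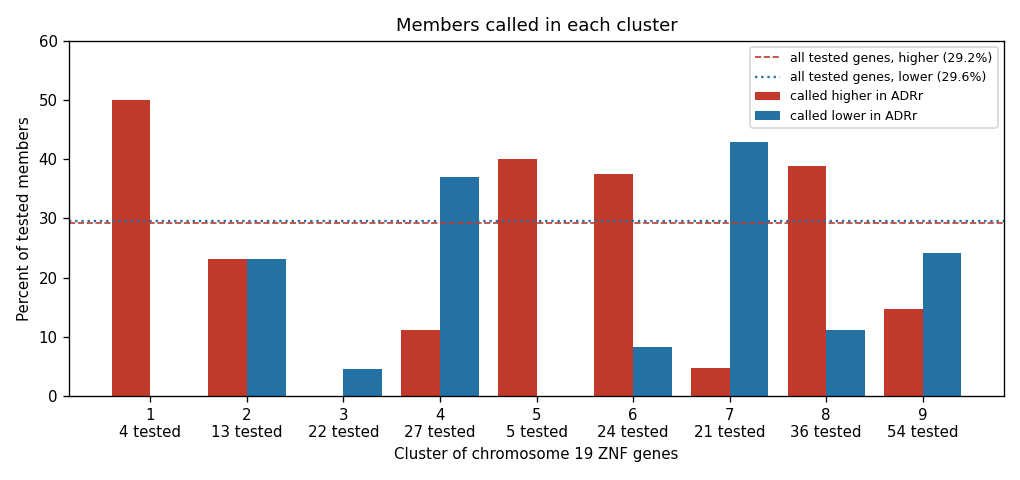
Percent of the tested members of each cluster called higher (red) or lower (blue) in ADRr cells, with the shares of all tested genes as lines (29.2% higher, dashed, and 29.6% lower, dotted). Clusters 1, 5, 6 and 8 lie above the line for higher calls, and clusters 4 and 7 above the line for lower calls, with 4 to 36 tested members each.

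**Figure D4:**
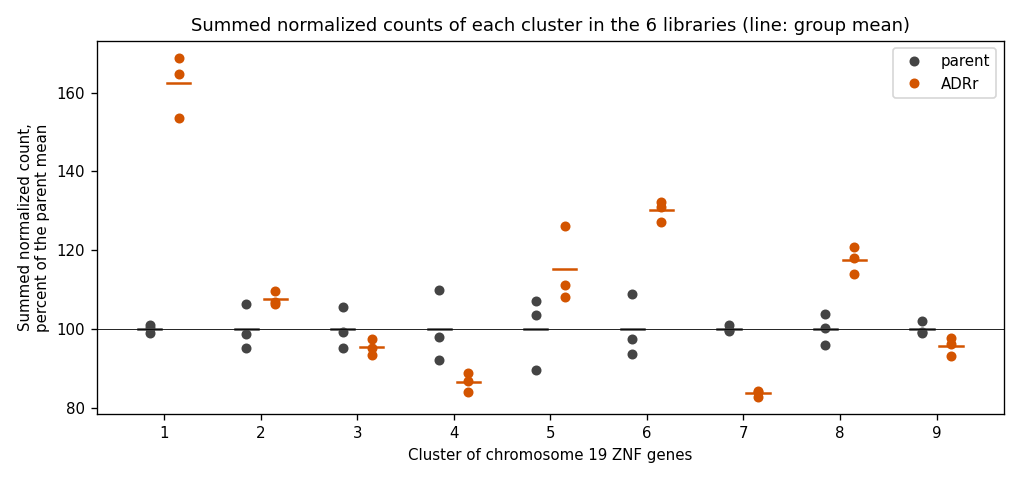
Summed normalized counts of each cluster in the 3 parent and 3 ADRr libraries, as a percent of the parent mean, with a line at each group mean. The groups overlap in clusters 2 and 3, and the mean ratio runs from 0.836 in cluster 7 to 1.62 in cluster 1.

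The 11 members outside the clusters included ZNF333, which rose from 155.4, 155.8 and 132.5 to 279.8, 280.5 and 274.6 (0.91 ± 0.12, edgeR adjusted p = 3.1e-07). A run of 3 neighbours, ZNF546 (−0.48), ZNF780B (−0.65) and ZNF780A (−0.37), was called lower. The groups overlapped in ZNF546 (edgeR adjusted p = 0.043) and in ZNF780A, but not in ZNF780B. ZNF473, a component of the U7 snRNP that processes histone mRNA, was slightly above the parent range in every ADRr library (0.15 ± 0.08, edgeR adjusted p = 0.11) and was not called. ZNF114 (11.9 FPKM) and ZNF428 (13.1 FPKM, in cluster 7), both among the 5 most abundant members per length, differed by −0.01 and −0.05 and were not called.

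The corepressors through which KRAB proteins act were listed separately, and all 30 genes of that list were tested. Of these, 16 were called lower (53.3%) and 3 higher (10.0%), beside 29.6 and 29.2% of all tested genes, and the median log2 fold change was −0.43. Calls in either direction made up 63.3% of the list, near the 58.8% of all tested genes. The median normalized count of the list was 1580, beside 401, and the part of count level in the shares was not tested. TRIM28, the direct KRAB partner, fell from 8304, 8012 and 8954 normalized counts to 4822, 4961 and 4588 (−0.82 ± 0.05, edgeR adjusted p = 4.2e-12). No ADRr library came near the parent range.

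SETDB1 was higher in every ADRr library, at 558.8, 517.1 and 512.3 against 603.3, 620.6 and 583.7, but its fold change of 0.19 ± 0.08 (edgeR adjusted p = 0.042) was below the threshold for a call. The largest decreases were in EHMT2 (−1.86 ± 0.08, edgeR adjusted p = 1e-15) and SUV39H1 (−1.23 ± 0.09, edgeR adjusted p = 7.5e-11), both histone H3 lysine methyltransferases, and in UHRF1 (−1.47 ± 0.06, edgeR adjusted p = 4.6e-16), which brings DNMT1 to replicated DNA. DNMT1 itself fell by 0.68 on the log2 scale, and the HP1 genes CBX5, CBX1 and CBX3 fell by 1.00, 0.59 and 0.57. MORC2 (0.37) and SUV39H2 (0.31) were among those called higher. Whether these levels bear on those of the members was not tested.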

How the data were processed

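RNA-seq of 3 parent and 3 ADRr libraries was used. The authors mapped reads with HISAT2 2.0.5 and counted them with featureCounts 1.5.0-p3 on GRCh38, per the submitters' processing notes. The strand setting is not given in the sources used here. The deposited tables hold whole-number counts per gene, not normalized, and FPKM values (counts per gene length and depth) that the authors computed. No column belonged to another sample. The methods and the labels differ on the library kit.

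Counts were filtered with filterByExpr, normalized with TMM and compared with edgeR 4.0.16 (quasi-likelihood test, Benjamini-Hochberg adjustment, R 4.3.3). The test was tested on simulated data. Normalized counts are counts scaled by TMM to the mean library size. The members, lists, motifs and roles were chosen with earlier results of these data known. Named were the 10 largest increases and decreases called (mean of at least 50 normalized counts, no overlap), the largest of each in each cluster (at least 20), the 5 highest in FPKM, and members and corepressors with known roles. Further members are named from runs of neighbours, shared promoter letters or an overlap, after their values were seen. DESeq2 1.42.0, limma 3.58.1 and other settings were alternatives. Sequence features came from GENCODE 29 transcripts, where fingers were counted by pattern in the longest reading frame. Some genes of the lists are not reported here by name.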

Additional observations from a re-analysis of the deposited data

How the results depend on the processing

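Same-numbered libraries did not deviate together (correlation across genes of 0.00735, −0.0213 and −0.0457), so the numbers were not taken to pair them, and a replicate block gave 43 members called higher and 46 lower, with 3 and 16 corepressor genes, and a median of −0.04. Changed thresholds for a call were left out of the tally of named genes. Across the other fits, 815 of 855 values of the 54 named genes kept their direction and side of the threshold. Of the rest 22 lost the call, 4 gained it and 14, in 5 members that were not called, changed sign. With each library left out, these members ranged from −0.059 to 0.029 (ZNF114), −0.147 to 0.113 (ZNF428), −0.203 to 0.181 (ZNF582), −0.238 to 0.027 (ZNF649) and −0.118 to 0.038 (ZNF85). ZNF114 was also at 0.021 with library size alone, 0.004 with at least 10 counts in every library and 0.007 with protein-coding genes only.

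The counts of calls moved with the threshold. An absolute log2 fold change of 1.2 left 3 members higher and 3 lower, and 0 and 3 corepressor genes, while glmTreat left 28 members lower and 1 corepressor gene higher. Limma-trend on log2(FPKM + 1) without a filter called 29 members lower. On that scale, where low genes are compressed, the medians with the filter were 0.31, −0.15, 0.15, 0.12, −0.165 and 0.12 in clusters 1, 4, 5, 6, 7 and 8. Without the filter they were 0.17, −0.067, −0.073, 0.11, −0.14 and 0.079 in the same clusters. A pseudocount of 0.1 gave 0.20 in cluster 5, where only 4 members then passed the filter. Counts without a filter gave 0.81, −0.13 and −0.34 in clusters 1, 4 and 7, and DESeq2 −0.34 in cluster 7. Ending clusters at 0.5 Mb gave −0.34 in cluster 7. A gap of 2 Mb joined cluster 5 with 6 (0.25) and cluster 8 with 9 (0.042), and gave −0.32 in cluster 7.

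With each library left out in turn, 39 to 47 members were called higher and 41 to 47 lower, and 2 to 3 and 16 to 18 corepressor genes. The median of all tested members ranged from −0.047 to 0 and cluster medians from −0.075 to 0.045 in cluster 2, −0.33 to −0.11 in cluster 4, −0.145 to −0.021 in cluster 5, 0.13 to 0.30 in cluster 6, −0.38 to −0.23 in cluster 7 and −0.087 to −0.042 in cluster 9. Depth limits most what is said of the 34 untested members and of those with few counts.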
